A study of Moxostoma hubbsi with 18 samples.

Results

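Homeobox transcription factors were followed in whole larvae of Moxostoma hubbsi, the copper redhorse, an endangered fish of fresh water, after rearing in laboratory water or river water. They were taken as the KEGG ortholog identifiers K09301 to K09378, the range used here for HOX and other homeobox, POU and LIM homeobox factors. Of the 78 identifiers in that range, 67 were found among the 9645 features of the series count table, and the other 11 were not analysed here. The count files of the single samples list 59 of the 67, and the remaining 8 stand in the series table alone. The deposited files pair no identifier with a gene name. The range could therefore not be checked against gene names and may hold other genes, and it could not be divided into HOX, POU and LIM members. For the same reason the larvae could not be checked against cell type markers, and no role is given to a single identifier.

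Homeobox genes encode transcription factors that bind DNA through a shared fold, the homeodomain. HOX factors set position along the head to tail axis of the embryo, and many POU and LIM homeobox factors act in the specification of neurons, the pituitary and sense organs. In a larva many of these genes are active in restricted sets of cells, so that a value from whole animals is a sum over all tissues.

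The study compared 9 libraries of laboratory water, the control, with 9 libraries of river water, which the series title calls contaminated. Each library was made from a pool of 5 whole larvae at 14 days after fertilization. The pooling means that single animals cannot be told apart, and the labels name no tank or family behind a pool. No strain, genotype or added agent is named in the labels for either group. The spread behind each p-value is that among the pools and may in part be technical. The main tests treat the 9 libraries of each water as independent, which the labels do not establish. Total counts were between 14868181 and 20584727 per library. In whole larvae, fewer cells of a type and less RNA per cell cannot be told apart.

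River water replicate 1 stood apart from the other libraries in the whole table. Of the 9008 features tested, 9.06% lay more than 2-fold below and 0.966% more than 2-fold above the mean of the 8 remaining river water libraries. The main results on the homeobox identifiers are therefore given with and without this library.

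Few of the reads fell on the homeobox identifiers. The 59 in the sample files held between 0.110% and 0.131% of the counts of a library. Of these, 58 passed the filter on low counts and were tested. Their mean level in laboratory water was between 0.949 and 94.7 CPM (counts relative to a scaled library size), with a median of 16.2 CPM against 21.8 CPM over all tested features. The scaling was TMM, a trimmed mean of log ratios between libraries, and CPM is not divided by gene length, so it describes how many reads stand behind a value and does not rank transcript levels between genes. With all tested features divided into 3 equal parts by counts, 24 of the 58 lay in the least counted part, 27 in the middle and 7 in the most counted.

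The 8 identifiers found in the series table alone had between 47 and 459 counts over all 18 libraries, and at most 41 in any 1 library. Of these, K09325 was abundant enough to test in a fit of the whole series table, and its log2 fold change of 0.075 ± 0.21 (SE) did not pass (edgeR adjusted p = 0.862). The other 7, and the 59th identifier of the sample files with 160 counts in all, fell below the filter and cannot be compared at this depth.

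The identifiers with the most counts had nearly the same level in both waters. K09377 ranged from 90.2 to 103 CPM in laboratory water with a median of 94.3 CPM, and from 89.9 to 97.6 CPM in river water with a median of 93.7 CPM. The groups overlapped over almost their whole range, and the log2 fold change of river over laboratory water was -0.0081 ± 0.031 (SE; edgeR adjusted p = 0.904), and -0.011 without river water replicate 1. K09313 ranged from 54.6 to 64.1 CPM in laboratory water (median 61.6 CPM) and from 57.2 to 65.9 CPM in river water (median 64.0 CPM), a log2 fold change of 0.047 ± 0.038 (SE; edgeR adjusted p = 0.464), or 0.043 without that library. K09365 ranged from 76.5 to 93.6 CPM in laboratory water, with a median of 83.6 CPM. In river water its median was 90.2 CPM, and the range of 70.9 to 154 CPM owed its upper end to replicate 1 alone, since the next highest library had 96.5 CPM. Its log2 fold change of 0.16 ± 0.10 (SE) did not pass (edgeR adjusted p = 0.341), and it was 0.050 without that library.

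The comparison between the waters asks whether larvae raised in river water differed in the expression of these factors. In river water 1 of the 58 tested homeobox identifiers passed as higher and 0 as lower (edgeR's quasi-likelihood F test, Benjamini-Hochberg adjusted p under 0.05 over all features). The share called was 1.72% of the homeobox identifiers, against 6.27% of all tested features (2.13% called higher and 4.14% called lower). Among all features of the least counted part 4.46% were called, among those of the middle part 6.23%, and among those of the most counted part 8.13%. At an unadjusted p under 0.05 (edgeR) 10 homeobox identifiers were higher and 1 was lower, which is 19.0% of the 58 against 23.7% of all features. By direction, 11.3% of all features were higher and 12.3% lower at this limit. With DESeq2 2 of the 58 were higher and 0 lower, against 9.98% of all features called, and 14 had an unadjusted p under 0.05, against 24.5% of all features. With limma-voom 1 was higher and 0 lower, against 6.24% of all features called, and 12 had an unadjusted p under 0.05, against 23.3%. Without river water replicate 1, edgeR called 2 of 59 higher and 0 lower, against 10.9% of all features. In the whole series table, with that library included, it called 1 of 59 higher and 0 lower, against 6.03%. Without river water replicates 1 and 6, 2 of 59 were called against 11.5% of all features, and with limma-voom and quality weights 3 of 58 against 13.3%. The groups overlapped for all 58. Over all tested features 0.888% had groups that did not overlap, too small a share to set the 58 apart.

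Most differences were small. The log2 fold changes lay between -0.28 and 0.78, and 50 of the 58, or 86.2%, were within 0.25 of 0, against 89.3% of all tested features. The median SE was 0.091 on the log2 scale. The median log2 fold change was 0.078 over the homeobox identifiers and 0.0090 over all tested features. A higher mean in river water was found for 41 of the 58, or 70.7%, against 53.0% of all features. Without river water replicate 1 this was 35 of 59 tested, or 59.3%, against 54.0% of all features, and the median log2 fold change was 0.032.

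**Figure D1:**
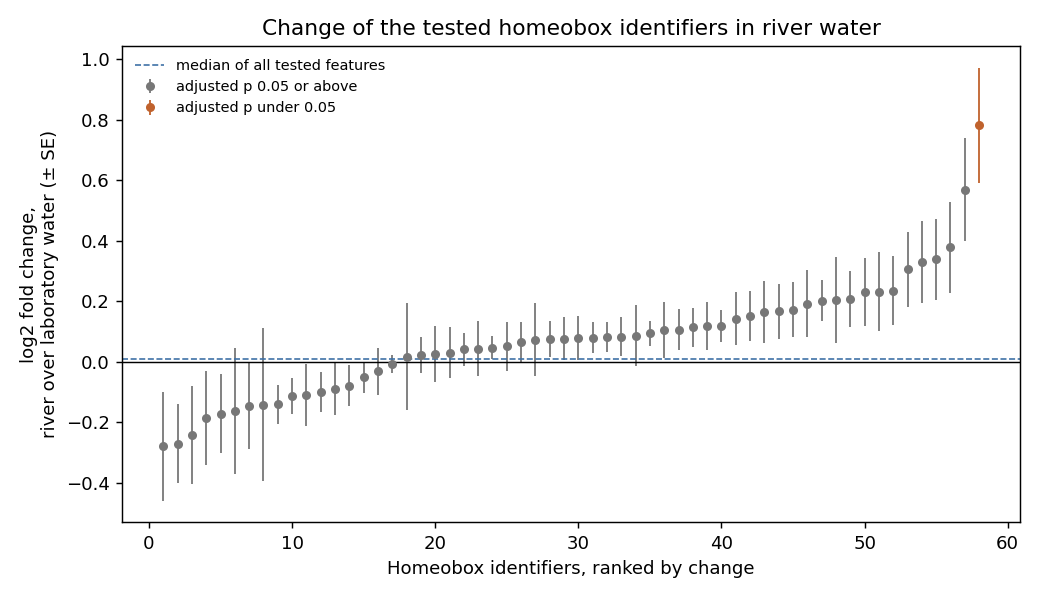
Log2 fold change of river over laboratory water with its standard error for the 58 tested homeobox identifiers, ranked along the horizontal axis, with the 1 that passed the test in orange and the median of all tested features as a dashed line. Most points lie close to 0, between -0.28 and 0.78, and the point that passed is the highest.

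The direction of the differences was also counted within subsets of the libraries. A number from 1 to 3 stands in each deposited file's name. The labels do not state its meaning, and there are 3 libraries of each water per number. Libraries that share a number may not be independent of each other, and the main fit treats them as independent. The river water mean was higher for 43 of 58 homeobox identifiers within number 1, which holds river water replicate 1, and for 39 of 58 there without that library. Within number 2 it was higher for 28 of 59, and within number 3 for 37 of 58. The corresponding shares of all features were 48.9%, 49.6%, 51.2% and 52.0% in the same order. No homeobox identifier passed the test within a number (edgeR), where 0, 5 and 276 of all features passed in numbers 1, 2 and 3. At an unadjusted p under 0.05 (edgeR) there were 6 of 58, 2 of 59 and 5 of 58 homeobox identifiers, against 7.12%, 13.7% and 15.7% of all features in the same order.

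K09348, the identifier that passed, had the fewest counts of all 58 tested. Its counts were between 11 and 26 per library in laboratory water with a median of 17, and between 10 and 44 in river water with a median of 29. As a level, it ranged from 0.625 to 1.60 CPM in laboratory water with a median of 0.845 CPM, and from 0.771 to 2.43 CPM in river water with a median of 1.55 CPM. Of the 9 river water libraries 8 lay above the laboratory mean, and replicate 1 lay inside the laboratory range at 0.771 CPM. The other 8 had 1.38 to 2.43 CPM and overlapped with laboratory water only through laboratory water replicate 4 at 1.60 CPM. Over 9 libraries each, the mean level was 0.949 ± 0.293 CPM (SD) with laboratory water and 1.61 ± 0.467 CPM (SD) with river water. K09348 was thus 1.72-fold higher in river water, and its log2 fold change was 0.78 ± 0.19 (SE; edgeR adjusted p = 0.0188).

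The call of K09348 held with any 1 library left out, with log2 fold changes of 0.69 to 0.90 and adjusted p of 0.00264 to 0.0418 (edgeR). Without river water replicate 1 the log2 fold change was 0.86. When the counts of the 3 libraries of each file number and water were summed, the log2 fold change was 0.79 and the call was lost, with an adjusted p of 0.0520 (edgeR), and 0 of 59 homeobox identifiers passed, against 3.45% of all features. Within the file numbers 1, 2 and 3 the log2 fold changes were 0.59, 0.98 and 0.68, with the river water mean higher in each, and adjusted p of 0.626, 0.248 and 0.199 (edgeR).

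K09344 had the next largest difference and did not pass. It ranged from 1.33 to 2.85 CPM in laboratory water with a median of 2.39 CPM, and from 2.45 to 6.48 CPM in river water with a median of 3.08 CPM. All 9 river water libraries were above the laboratory mean of 2.21 CPM, and replicate 1 was far above the other 8, which reached 3.40 CPM. Its log2 fold change was 0.57 ± 0.17 (SE; edgeR adjusted p = 0.0511). The SD over river water was 1.21 CPM with replicate 1 and 0.325 CPM without it. Without that library the difference was smaller, a log2 fold change of 0.42, and it passed (edgeR adjusted p = 0.0291). It also passed with DESeq2 (adjusted p = 0.0179) and without laboratory water replicate 7 or river water replicate 4 or 5 (edgeR adjusted p of 0.0476, 0.0466 and 0.0481). With 1 library left out it passed in 4 of 18 fits, and the highest adjusted p was 0.0923 (edgeR). It passed in 4 of 12 other settings. Among those where it did not were limma-voom (adjusted p = 0.0541) and counts summed by file number (edgeR adjusted p = 0.106).

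Among identifiers with a lower mean in river water, K09322 and K09356 had the smallest p-values, and neither passed. K09322 ranged from 19.5 to 22.7 CPM in laboratory water with a median of 20.4 CPM, and from 13.7 to 21.8 CPM in river water with a median of 19.6 CPM. Replicate 1 had the lowest value, the next lowest was 17.8 CPM, and the log2 fold change was -0.14 ± 0.064 (SE; edgeR adjusted p = 0.188), or -0.092 without that library (edgeR adjusted p = 0.212). K09356 ranged from 3.72 to 5.78 CPM in laboratory water with a median of 4.67 CPM, and from 1.77 to 5.31 CPM in river water with a median of 4.17 CPM. Replicate 1 was again the lowest, well under the next value of 3.56 CPM, and the log2 fold change was -0.27 ± 0.13 (SE; edgeR adjusted p = 0.213), or -0.19 without it (edgeR adjusted p = 0.217). For both, the laboratory mean was above 8 of the 9 river water libraries.

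**Figure D2:**
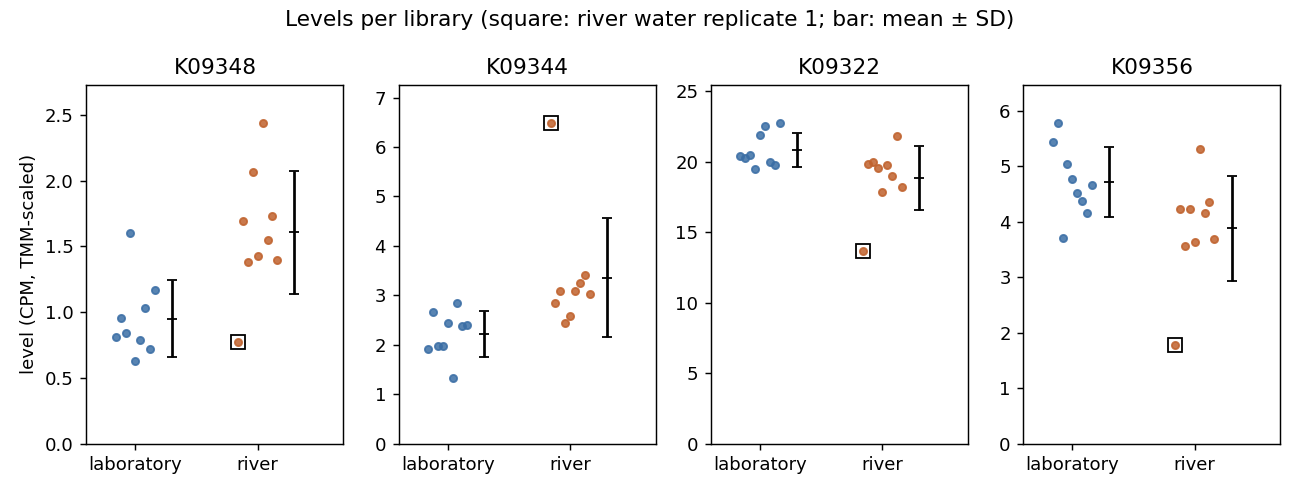
Level in TMM-scaled CPM per library for the 2 identifiers with the largest positive difference and the 2 of smallest p with a lower mean in river water, with 9 points per water, the mean and SD as bars, and river water replicate 1 marked by a square. Replicate 1 is the highest river water library for K09344, at 6.48 CPM, and the lowest for K09348, K09322 and K09356.

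The largest departures among the homeobox identifiers were found within river water, in replicate 1. It was the highest of the 9 river water libraries for 35 of the 58 (60.3%, against 34.7% of all tested features). For 14 it was the lowest (24.1%, against 35.6%), a smaller share than over all features. Together these were 84.5% against 70.3%. In this library 9 homeobox identifiers (15.5%, against 9.06% of all features) lay more than 2-fold below the mean of the 8 remaining river water libraries. Among all features of the least and middle counted parts, which hold most of the 58, the share that low was 10.7%. More than 2-fold above the same mean lay 5 identifiers (8.62%, against 0.966% of all features). In each of the other 17 libraries 0 of the 58 departed by more than 2-fold from the mean of the rest of their group. Such departures were rare there over all features too, at most 1.32% higher (river water replicate 6) and 0.366% lower (river water replicate 8). The values of replicate 1 describe 1 pool, with no replicate of its departure.

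The departures of replicate 1 went in both directions. The median over the 58 was a log2 ratio of 0.30 against the other river water libraries, where the median over all tested features was -0.0058. More than 1.5-fold higher were 21 of the 58, or 36.2%, against 8.44% of all features. More than 1.5-fold lower were 11 of the 58, or 19.0%, against 17.5% of all features. The number past the limits on the higher side depended on the scaling, while the share past the 1.5-fold limit stayed above that of all features. With levels taken relative to the unscaled library total, the median of all features was itself shifted to a log2 ratio of -0.24 in this library and that of the homeobox identifiers was 0.062, with 10 of 58 more than 1.5-fold higher (17.2% against 3.15% of all features) and 0 more than 2-fold higher. The number more than 2-fold lower was 9 under either scaling. Relative to the unscaled total, 13 of 58 were more than 1.5-fold lower, or 22.4% against 26.3% of all features. With DESeq2 size factors 21 of the 58 were more than 1.5-fold higher (36.2% against 8.51% of all features), and 9 were more than 2-fold lower.

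K09361 had the lowest ratio. Its counts were 51 to 136 per library in laboratory water, and river water replicate 1 had 5. As a level, it ranged from 2.83 to 6.83 CPM in laboratory water and from 3.22 to 6.58 CPM in the other 8 river water libraries, and it was 0.386 CPM in replicate 1, which is 0.0838 times the mean of those 8. K09315 had 3.47 CPM in replicate 1 against 12.5 to 24.3 CPM in the other 8. K09329 had 8.18 CPM against 30.3 to 43.8 CPM, with 106 counts behind the lower value. Of the 9 identifiers in this set, 8 had a value in replicate 1 below that of all other 17 libraries. The exception was K09348, which was at the laboratory level in this library. The 9 ratios lay between 0.0838 and 0.468, and the next identifier above the 2-fold limit had a ratio of 0.637.

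At the other end, K09360 had the highest ratio. It was 61.8 CPM in replicate 1, whereas it ranged from 21.4 to 31.7 CPM in the other 8 river water libraries and from 24.6 to 28.8 CPM in laboratory water. Over the 21 identifiers more than 1.5-fold higher in replicate 1, the ratios lay between 1.51 and 2.25, and the next identifier below the limit had a ratio of 1.47. K09360, K09315, K09361, K09329 and K09341 were chosen for description after their values were seen.

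**Figure D3:**
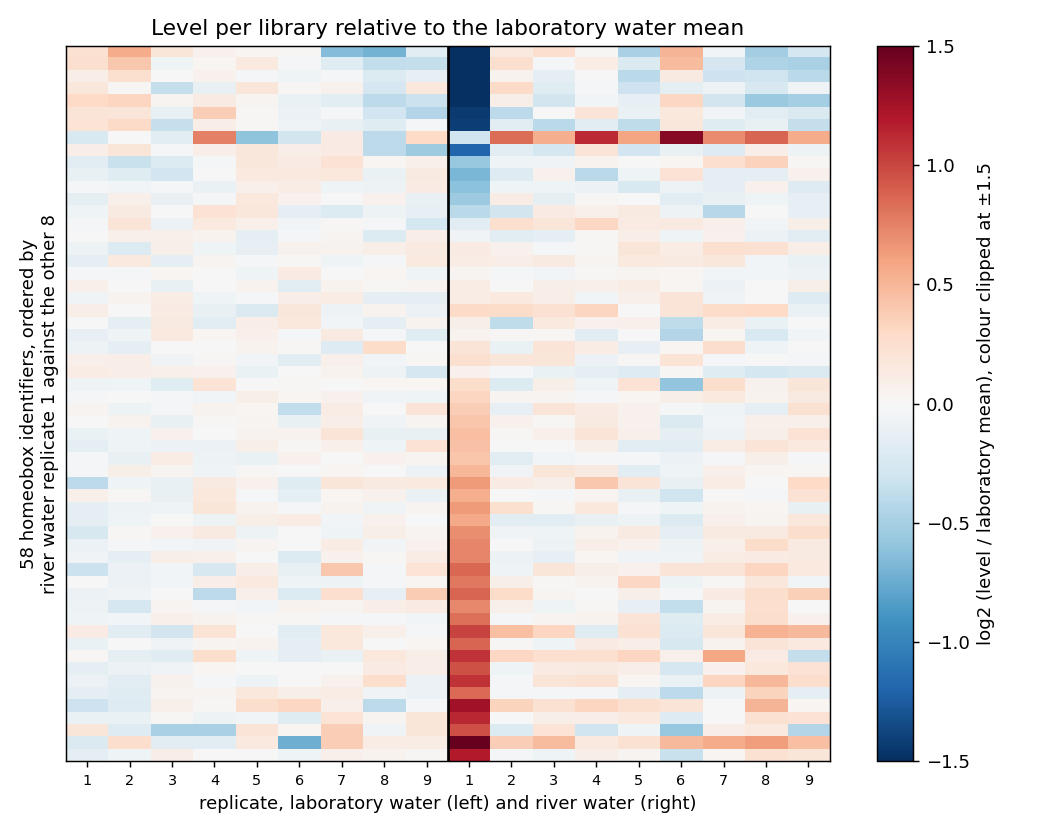
Level of the 58 tested homeobox identifiers in each of the 18 libraries as log2 of the ratio to the laboratory water mean, with blue for lower and red for higher, and rows ordered by the ratio of river water replicate 1 to the other 8 river water libraries. The column of river water replicate 1 runs from deep blue to deep red, while the other 17 columns are mostly paler. The row of K09348 is red in the other 8 river water libraries and in laboratory water replicate 4, and that of K09344 is a fainter red in the same 8. Some laboratory water libraries also lie above the mean in these rows, such as replicate 9 for K09348 and replicate 7 for K09344.

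Spread within laboratory water was also unequal among the homeobox identifiers. The median coefficient of variation over the 9 laboratory water libraries was 7.98% for the 58 and 7.99% for all tested features. Over all tested features of the least and middle counted parts it was 12.3% and 7.35%. Within river water it was 18.3% for the homeobox identifiers and 11.8% for all features. Without replicate 1 the river water values were 9.87% and 8.35%.

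The 9 identifiers low in river water replicate 1 varied more in the median than the others among the laboratory water libraries, which took no part in their choice. Their median coefficient of variation there was 17.2%, against 7.55% for the 21 high in that library and 7.32% for the other 28. The ranges overlapped, with 9.21% to 30.9%, 3.23% to 20.9% and 3.68% to 12.7% in the same order. The limits of the sets differ, at over 2-fold for the 9 and over 1.5-fold for the 21. Those 5 of the 21 that were over 2-fold high had 5.08%, 9.19%, 16.3%, 20.1% and 20.9%. At an equal limit the contrast was thus smaller. The median was 14.5% for the 807 other features more than 2-fold low in the same library. Laboratory means under 5 CPM, where counting error weighs more, were found for 5 of the 9, 5 of the 21 and 1 of the 28, and the part of counting error was not tested. By identifier, K09315 had a laboratory mean of 17.4 CPM and a coefficient of variation of 18.2%, K09341 had 28.7 CPM and 17.2%, and K09329 had 40.0 CPM and 9.21%.

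The levels of these sets can be followed from library to library. Expressed as a percentage of each identifier's laboratory mean, the median over the 9 was 115% and 118% in laboratory water replicates 1 and 2, with 8 and 9 of the 9 above their mean. It was 77.3% in laboratory water replicate 8, with 0 of 9 above. In river water it was 34.6% in replicate 1, where the set was chosen, and 113% in replicate 6, and it was between 81.7% and 106% in the other 7. The 807 other tested features that were more than 2-fold low in river water replicate 1 had medians of 112% and 113% in laboratory water replicates 1 and 2, 90.9% in laboratory water replicate 8 and 122% in river water replicate 6. The pattern was thus shared with features outside the homeobox range. The set of 21 had its lowest medians where the set of 9 was high, with 93.7% and 94.0% in laboratory water replicates 1 and 2 and 90.3% in river water replicate 6. It was 118% in river water replicate 8 and, by its choice, high at 183% in replicate 1. The other 28 stayed between 97.2% and 109% in all 18 libraries.

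**Figure D4:**
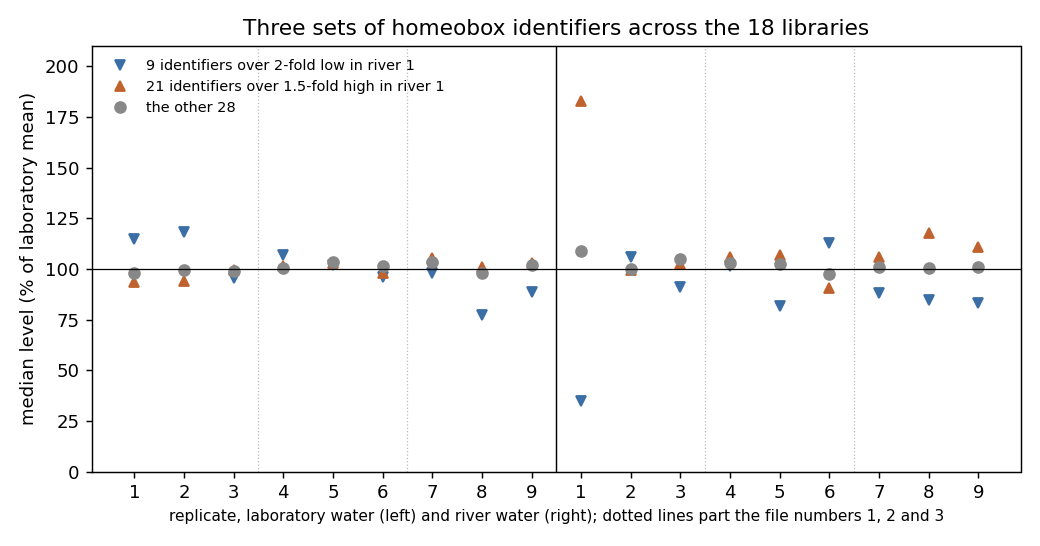
Median level, as a percentage of the laboratory water mean, of the 9 homeobox identifiers over 2-fold low in river water replicate 1, the 21 over 1.5-fold high there, and the other 28, in each library, with dotted lines between the file numbers. The first set is at 34.6% and the second at 183% in river water replicate 1, and in the other libraries both lie between 77.3% and 118%.

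Part of the spread in laboratory water followed the number in the file names. When the 3 numbers were compared within laboratory water across all features, 3 of 59 homeobox identifiers passed (edgeR quasi-likelihood test, adjusted p under 0.05), against 0.976% of all features. At an unadjusted p under 0.05 (edgeR) there were 8 of 59, against 11% of all features, so at this limit the homeobox identifiers were near the share of all features. The 3 identifiers that passed are few. They were K09341, K09361 and K09315, with adjusted p of 0.0139, 0.0300 and 0.0471 (edgeR, 3 libraries per number), and all 3 belong to the 9 that were low in river water replicate 1. This overlap is not independent support, since the 9 varied more in the median within laboratory water, where the comparison was made. The share of all called features that were low in that library was not counted. K09341 had 29.6, 35.2 and 35.8 CPM in the libraries of number 1, a mean of 33.5 CPM. Its mean was 29.2 CPM in number 2, and in number 3 it had 21.9, 23.0 and 25.5 CPM, a mean of 23.5 CPM. The libraries of numbers 1 and 3 did not overlap, which adds no support, since K09341 was chosen by this same comparison. The share of all features with such a separation was not counted.

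K09361 had a mean of 5.84 CPM in number 1, 4.76 CPM in number 2 and 3.30 CPM in number 3, so that number 1 was 1.77 times number 3. K09315 had means of 20.1, 18.1 and 14.1 CPM in numbers 1, 2 and 3. In river water without replicate 1, 0 features of the whole table passed the same comparison, and 5 of 59 homeobox identifiers had an unadjusted p under 0.05 (edgeR), against 9.30% of all features. K09315 and K09341 were among the 5, and K09361 was not. Number 3 had the lowest river water mean for all 3 identifiers, with 13.3 CPM for K09315, 21.2 CPM for K09341 and 3.86 CPM for K09361. The file number is balanced between the waters, and with the number as a term in the fit of the waters 2 homeobox identifiers were higher, K09348 and K09344, and 0 lower (edgeR), against 6.02% of all features called.

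The summed level of the 59 homeobox identifiers in the sample files differed little between the waters. It ranged from 1145 to 1210 CPM in laboratory water and from 1135 to 1506 CPM in river water, where replicate 1 was the highest and the next was 1222 CPM. The laboratory water mean was 1172 ± 21.9 CPM (SD, n = 9). In river water it was 1224 ± 109 CPM (SD, n = 9), or 1189 ± 26.9 CPM without replicate 1 (SD, n = 8). The groups overlapped with and without that library. As a share of all counts, replicate 1 was closer to the rest, with 0.131% where the other 17 libraries had up to 0.127%.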

How the data were processed

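RNA of 18 pools was sequenced. The authors deposited whole-number counts per identifier, per the file headers, in 18 sample files and 1 series table. Aligner, sequence database and counting program: not given in the sources used here. A tool, edgeR, is named without a version in the submitters' processing notes. An identifier may pool paralogs, whose opposite changes would then be hidden. The sample files were the main input, and 0 columns of the series table went unused.

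Groups came from the titles. In R 4.3.3, edgeR 4.0.16 was fitted to all features (minimum count 10, minimum total 15, TMM, robust quasi-likelihood F test, Benjamini-Hochberg, water as the only term), and the homeobox rows were then read out. For the SE, each log2 fold change was divided by its root F statistic. The fit was tested on simulated data. Alternatives included DESeq2 1.42.0 and limma 3.58.1. No pair of libraries agreed within sampling noise (the lowest chi-square, per degree of freedom, was 4.20).

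The members and lists were chosen with earlier results of these data known. With no gene names, the rule for printed identifiers took up to 2 with a higher and 2 with a lower mean, passing ones first and then by smallest p, plus the 3 with the most counts and the 1 with the fewest. Others were named after their values were seen.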

Additional observations from a re-analysis of the deposited data

Results flagged for a closer look

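Dixon's gap test was run on 17 sets of 9 reported values and exceeded its critical value in 7. By chance it does so in about 1 of 20 sets. Of these, 6 belong to river water replicate 1 and are not independent of each other. In that library K09344 was 6.48 CPM (next 3.40 CPM), K09365 was 154 CPM (next 96.5 CPM), K09322 was 13.7 CPM (next 17.8 CPM) and K09356 was 1.77 CPM (next 3.56 CPM). The summed level was 1506 CPM (next 1222 CPM), and 14 identifiers were more than 2-fold from the rest of the group, where the other 8 river water libraries had 0. In this last set the other 8 values are equal, so the gap fills the whole range at any count. The chance rate does not apply to it. In laboratory water replicate 6, K09377 was 103 CPM (next 96.5 CPM). Over the 58 tested homeobox identifiers the same test singled out 30 in river water, each time through replicate 1, and 2 in laboratory water. These are 51.7% and 3.45% of the 58, against 25.2% (through replicate 1) and 6.39% of all 9008 tested features.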

How the results depend on the processing

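The number of homeobox identifiers called was 1. It was 2 with DESeq2, with the file number as a block and without river water replicates 1 and 6 together, 3 with limma-voom and quality weights (K09348, K09344 and K09375), and 0 with counts summed by file number or within any file number, river water replicate 1 included or left out. With any 1 library left out it was 1 to 2, with K09344 or, without river water replicate 9, K09375 as the additional one, and in each of these settings 0 were lower. Over all features the count was 565, and it was 899 with DESeq2, 311 with summed counts, 1041 without river water replicates 1 and 6, 1200 with quality weights, 377 to 979 with 1 library left out, and 0, 5 and 276 within file numbers 1, 2 and 3 (99 within number 1 without river water replicate 1). The fits within file numbers, the quality weights and the departures of replicate 1 under other scalings were chosen after the data were examined. The comparison of file numbers within each water and the division into sets of 9, 21 and 28 were not planned either. In the fit with a replicate block by the number in the titles, 356 features and 1 homeobox identifier, K09348, were called. Of 9 pairs with the same number, 4 had deviations correlated over 0.1 (range -0.437 to 0.392), and 2 of 18 libraries correlated best with their own number, so the numbers are not taken to pair the samples. K09377 and K09313, both near 0, changed sign, K09377 between -0.0166 and 0.00977 with 1 library left out and at 0.00399 and 0.000276 within file numbers 1 and 2, and K09313 at -0.0287 within number 3. The cause was not tested. Other scalings, filters and estimation kept the sign and the side of the threshold of K09348, K09344, K09322, K09356, K09377, K09365 and K09313, the 7 followed under them. Counts of 10 to 44 in river water limit the precision for K09348.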
